A study of Mus musculus with 9 samples.

Results

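The 48 genes described here make the machinery that copies chromosomal DNA and the enzymes that supply its deoxynucleotides. They were chosen by name, from origin licensing factors to the E2F regulators of the cell cycle, and matched to the files by Ensembl identifier through the GENCODE M21 annotation. All 48 were among the 47729 gene identifiers in the files, and all 48 passed the filter on low counts that left 13223 genes to test. RNA-seq was done on macrophages of the mouse peritoneal cavity, in 9 libraries that form 3 groups of 3. Every mouse was Cx3cr1CreERT2-IRES-EYFP/+ and Rosa26-stopfl-tdTomato/+, so that tamoxifen marks, with tdTomato, cells whose Cx3cr1 promoter is active, and their descendants. Every mouse also received IL-4 complexes (5 µg of IL-4 with 25 µg of antibody to IL-4) every other day from 4 days before harvest. Those complexes drive macrophages into the alternatively activated state and into division in the mouse peritoneum. The Tissue_converted group, called converted below, received 2 ml of thioglycollate, an irritant that draws monocytes into the cavity, and 10 weeks of tamoxifen diet. For the Tissue_resident group, called resident, the labels give no further treatment. The Monocyte_derived group received 2 ml of thioglycollate and was harvested on day 4, so that IL-4 and the irritant began together in this group. The labels do not give the ages of the mice or the sorting gates, and they do not say that the 3 libraries within a group are from different mice, and the p-values below cover no more than the variation among the sequenced libraries.

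Each library held between 15220884 and 20496258 reads assigned to genes. Levels are CPM, a gene's share of all gene reads in its library, after TMM scaling of library sizes. Levels compared between genes are TPM, computed from the counts and the exon length of each gene, without TMM scaling. TPM therefore serve to compare genes within a library, and levels are compared between groups in CPM. The exon length joins the exons of all annotated transcripts of a gene. It can exceed the length of the RNA present, so ratios between genes depend on it. The 8 macrophage markers summed to 6340 to 7906 CPM in converted, 6688 to 7006 CPM in resident and 3837 to 6521 CPM in monocyte-derived libraries. Adgre1, which encodes F4/80, carried the difference in this sum, with means of 3077, 2978 and 343.3 CPM in the same order of groups. Of the 8 markers, 3 were higher and 2 lower in converted, and 3 higher and 2 lower in resident, than in monocyte-derived libraries. Of all tested genes, 25.8% were higher and 24.9% lower in converted, and 25.7% higher and 24.9% lower in resident libraries. The lower markers, named after their values were seen, were Lyz2 and Fcgr1. Gata6, the transcription factor of resident peritoneal macrophages, was at 132.4 to 176.7 CPM in converted, 158.7 to 162.6 CPM in resident and 0.59 to 2.08 CPM in monocyte-derived libraries. Monocyte-derived library 1 stood farthest from the others of its group, and converted library 2 had the highest value of its group for 47 of the 48 replication genes, so counts are also given without each of these. Xist had at most 0.0979 CPM in converted and resident libraries and 41.1 to 101.1 CPM in monocyte-derived libraries, whereas Ddx3y, encoded on the Y chromosome, had 84.6 to 96.1 CPM in converted, 85.9 to 93.4 CPM in resident and 0 CPM in monocyte-derived libraries. The sex of the mice and any difference from the monocyte-derived group therefore cannot be told apart.

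A cell prepares to copy its DNA by loading the MCM helicase onto origins, a step called licensing, in which the origin recognition complex, Cdc6 and Cdt1 take part and which geminin restrains. At the start of S phase, Cdc45 and the GINS complex join the helicase and activate it. Primase and polymerase alpha then start each strand, the RFC loader places the PCNA clamp, and polymerases delta and epsilon extend the strands while RPA covers single-stranded DNA. Ribonucleotide reductase, thymidylate synthase and thymidine kinase supply the deoxynucleotides. Most of these genes are transcribed as cells pass from G1 into S phase, under E2F transcription factors. Macrophages of the serous cavities are known for keeping their number by dividing in place, and IL-4 increases this division. In RNA from pooled cells, fewer cells in S phase and less RNA per cell cannot be told apart.

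Promoters are shown because these genes moved together across the 3 groups, and the cause of that shared movement was not tested. RefSeq promoters on GRCm38.p6, from 250 bases before to 50 bases after a transcription start, were available for 39 of the 48 genes. The E2F motif searched was TTTCCCGC, TTTCGCGC, TTTGCCGC or TTTGGCGC on either strand, with overlapping matches kept. It was found in promoters of 16 of the 39 genes (41.03%), against 704 of the 27025 genes with a promoter in that table (2.6%). The motif CCAAT, on either strand, was found for 24 of the 39 genes (61.54%), against 41.06% of all genes in the table. The motif TTTGAA, on either strand, was found for 6 of the 39 genes (15.38%), against 20.23% of all. These shares of all genes cover the whole promoter table, neither limited to the genes tested here nor matched for base composition. The stretches below hold an E2F match upstream of the RefSeq start, written 5′ to 3′ on the gene's strand with the match in capitals. Orc1, Cdc6 and Mcm7 had the largest differences between converted and monocyte-derived libraries among the genes with such a match, and Rfc3 had the smallest. Mcm5 and Mcm6 were added after their values were seen, because each holds 2 matches on opposite strands that overlap. For Orc1, Mcm7 and Rfc3 the match lies in an exon of some GENCODE transcript, and 30 bases are shown; the other stretches of 100 bases hold no annotated exon. These are matches of letters, and no binding was measured here.
Orc1, chr4:108579416-108579445, plus strand: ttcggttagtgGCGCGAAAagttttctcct
Cdc6, chr11:98907982-98908081, plus strand: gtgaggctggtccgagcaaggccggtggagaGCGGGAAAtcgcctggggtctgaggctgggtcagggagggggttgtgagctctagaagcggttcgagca
Mcm7, chr5:138172030-138172059, minus strand: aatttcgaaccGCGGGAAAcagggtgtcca
Rfc3, chr5:151651209-151651238, minus strand: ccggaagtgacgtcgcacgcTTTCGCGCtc
Mcm5, chr8:75109310-75109409, plus strand: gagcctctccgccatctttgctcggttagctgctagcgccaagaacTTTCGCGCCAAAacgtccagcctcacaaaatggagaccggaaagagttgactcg
Mcm6, chr1:128359762-128359861, minus strand: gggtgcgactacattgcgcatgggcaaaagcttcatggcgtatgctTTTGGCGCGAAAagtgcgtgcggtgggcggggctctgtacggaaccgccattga

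The replication genes were at their highest in converted, intermediate in resident and at their lowest in monocyte-derived macrophages. Their summed level was 4697, 6519 and 4678 CPM in the 3 converted libraries, 3311, 3753 and 3421 CPM in the resident libraries, and 1274, 1922 and 2331 CPM in the monocyte-derived libraries. The groups did not overlap in this sum, which averaged 5298 ± 1058 CPM in converted, 3495 ± 230.2 CPM in resident and 1842 ± 533.2 CPM in monocyte-derived libraries (SD, n = 3 each). The converted mean was 2.88 times the monocyte-derived mean, the resident mean was 1.90 times it, and the converted mean was 1.52 times the resident mean. By gene, 47 of the 48 had group means in this order, as did 23.2% of all tested genes. For 38 of the 48, all 3 groups stood apart in this order with no overlap, against 5.9% of all tested genes. The map of levels in every library shows the gradient across groups and the position of single libraries.

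**Figure D1:**
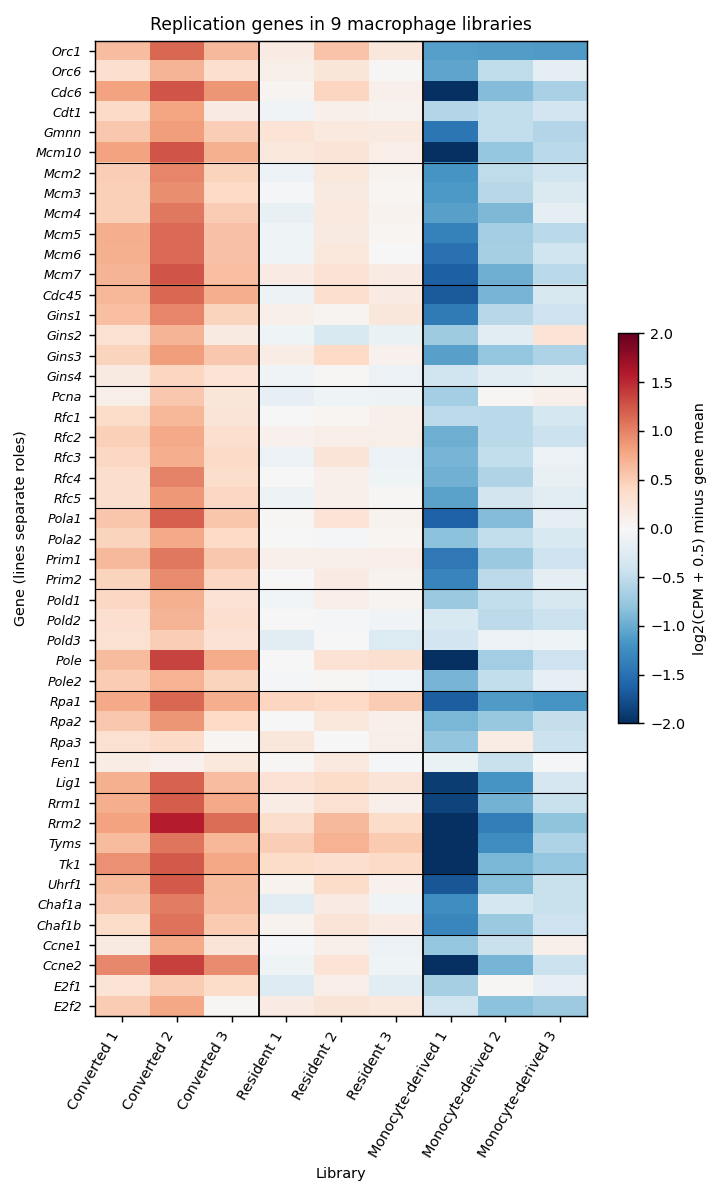
Levels of the 48 replication genes (rows, by role) in the 9 libraries (columns: converted 1 to 3, resident 1 to 3, monocyte-derived 1 to 3), as log2(CPM + 0.5) minus the mean of the gene over all libraries, with the colour scale ending at 2 above and below. Nearly all rows run from high in converted libraries to low in monocyte-derived libraries; monocyte-derived library 1 is the lowest of its group in 43 of 48 rows and converted library 2 the highest of its group in 47.

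The comparison of converted with monocyte-derived macrophages sets against each other the groups that received both thioglycollate and IL-4. These groups also differed in the sex-linked transcripts, and the labels give a tamoxifen diet for the converted group alone. No harvest day after thioglycollate is given for the converted group. With edgeR's quasi-likelihood test and Benjamini-Hochberg adjustment over all 13223 genes, 45 of the 48 replication genes were higher in converted libraries at an adjusted p under 0.05, none was lower there, by DESeq2 or by limma-voom, and all 48 log2 fold changes were above 0. Of all tested genes, 25.8% were higher and 24.9% lower. The median log2 fold change of the 48 was 1.36, or 2.56-fold, with a range of 0.45 to 2.64, while the median of all tested genes was -0.01. The libraries of the 2 groups did not overlap for 46 of the 48, all with converted higher, against 28.6% of tested genes higher and 27.7% lower without overlap. Called and at least 2-fold higher were 36 genes, and the matching share of all tested genes was not computed. The 3 genes not called were Gins2, Pcna and Fen1. Without monocyte-derived library 1 the count was 44, and without converted library 2 it was 43.

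The same comparison for resident macrophages gave smaller differences. Of the 48 genes, 36 were higher in resident than in monocyte-derived libraries and none was lower, where 25.7% of all tested genes were higher and 24.9% lower. The median log2 fold change of the 48 was 0.79, with a range of -0.00 to 1.90, against 0.00 over all tested genes. The libraries did not overlap for 41 of the 48, all with resident higher, against 30.6% of tested genes higher and 28.9% lower. Called and at least 2-fold higher were 16 genes, again without a matching share of all tested genes. The 12 genes not called were Gins2, Gins4, Pcna, Rfc3, Rfc4, Rfc5, Pold3, Rpa3, Fen1, Chaf1a, Ccne1 and E2f1. Leaving out monocyte-derived library 1 left 32 genes called, and leaving out resident library 2 left 25, without Mcm2, Mcm3, Mcm4, Mcm6, Cdc45, Pole and Ccne2 among others. Both comparisons use the same 3 monocyte-derived libraries, so they are not independent of each other.

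Between converted and resident macrophages, 3 of the 48 genes passed the test, Pola2, Pold2 and Pold3, all higher in converted libraries, and none was lower; of all tested genes 1.82% were higher and 4.26% lower. Every replication gene nonetheless had a log2 fold change above 0, with a median of 0.55 and a range of 0.13 to 1.08, where the median of all tested genes was 0.01. At an unadjusted p under 0.05 stood 35 of the 48, against 2749 of the 13223 tested genes in either direction. Libraries did not overlap for 44 of the 48, all with converted higher, against 19.6% of tested genes higher and 17.7% lower. The count of calls depended on which libraries entered the fit. In a fit of converted and resident libraries alone, 36 of the 48 were higher, against 7.08% of the genes tested there. Without monocyte-derived library 1, 32 were higher, against 5.53% of the genes tested. Without converted library 2, resident library 1 or resident library 3, none passed the test, with 11, 16 and 18 genes at an unadjusted p under 0.05. For these fits the matching shares of all tested genes at an unadjusted p were not computed. Leaving out any other single library gave 1 to 8 calls.

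**Figure D2:**
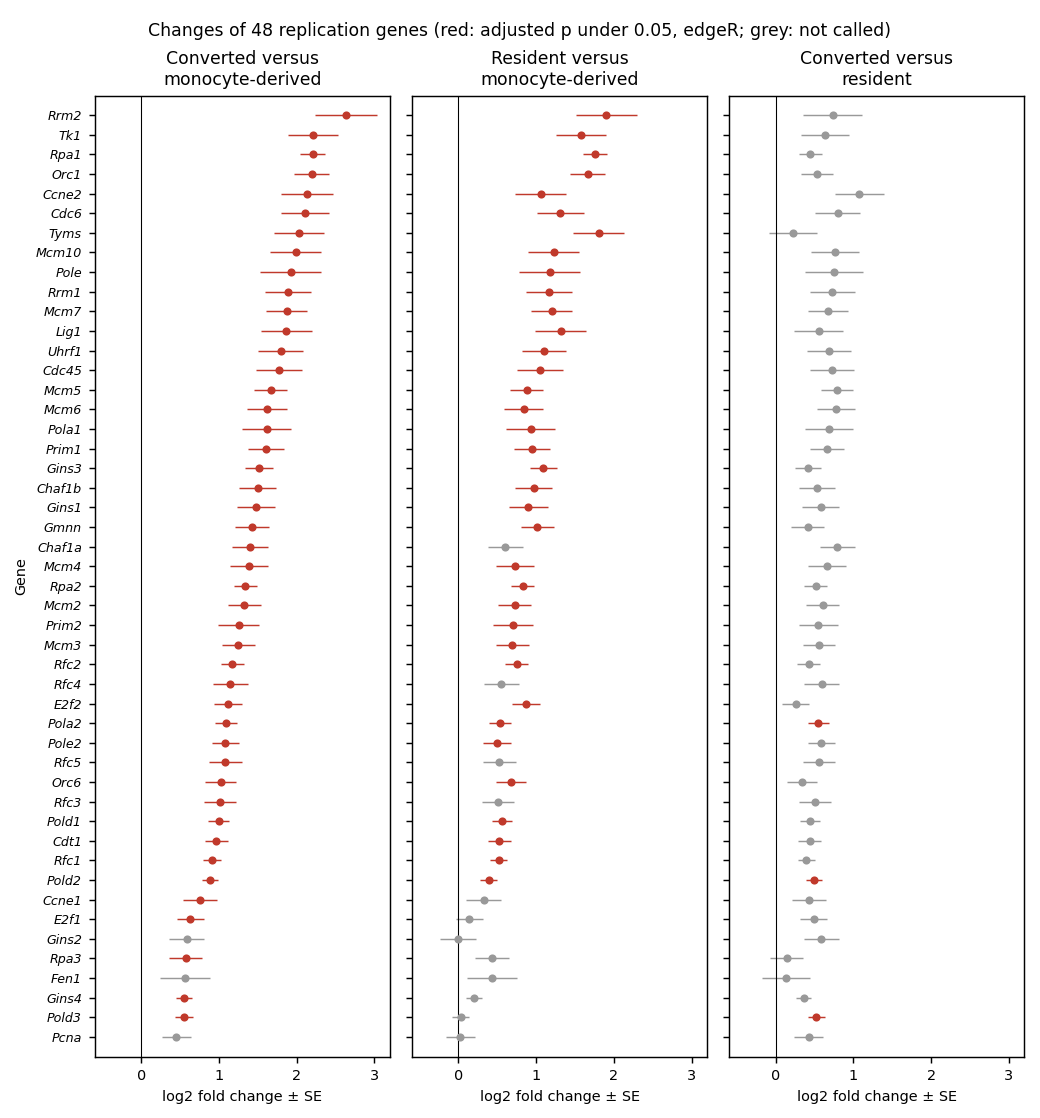
log2 fold changes ± SE of the 48 replication genes (rows, ordered by the first panel) from edgeR, for converted against monocyte-derived, resident against monocyte-derived and converted against resident libraries (n = 3 each). Red points passed an adjusted p under 0.05: 45 genes in the first panel, 36 in the second and 3 in the third; the points of the third panel lie between 0.13 and 1.08.

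Licensing genes were all higher in both groups than in the monocyte-derived group. All 6 (Orc1, Orc6, Cdc6, Cdt1, Gmnn and Mcm10) passed the test in converted and in resident macrophages against monocyte-derived macrophages, and none passed between converted and resident. Orc1, the largest subunit of the origin recognition complex, had 7.53, 11.03 and 7.65 CPM in converted, 5.34, 7.24 and 5.58 CPM in resident and 1.92, 1.91 and 1.88 CPM in monocyte-derived libraries. The monocyte-derived libraries hardly differed in Orc1, and the converted and resident libraries were all several times higher, with a log2 fold change of 2.19 ± 0.22 (SE) for converted (adjusted p = 3.09e-05) and 1.67 ± 0.23 for resident (adjusted p = 0.000189). Cdc6, which loads the helicase with the origin recognition complex, had 59.4, 81.4 and 62.4 CPM in converted, 35.0, 45.5 and 36.3 CPM in resident and 7.89, 18.2 and 21.2 CPM in monocyte-derived libraries. The groups stood apart, and Cdc6 was higher by a log2 fold change of 2.11 ± 0.31 in converted (adjusted p = 0.00036) and 1.31 ± 0.30 in resident libraries (adjusted p = 0.00538) than in monocyte-derived libraries. Cdt1, the other loading factor, averaged 56.5 ± 12.9 CPM in converted, 41.7 ± 2.51 CPM in resident and 29.0 ± 2.02 CPM in monocyte-derived libraries. Gmnn encodes geminin, which binds Cdt1 and blocks renewed loading. Its TPM was 3.01 ± 0.30 times that of Cdt1 in converted, 3.04 ± 0.29 times in resident and 2.14 ± 0.62 times in monocyte-derived libraries, where single libraries spanned 1.45 to 2.65. Mcm10, which acts as the helicase starts to move, averaged 51.7 ± 10.98 CPM in converted, 30.5 ± 1.33 CPM in resident and 13.1 ± 6.30 CPM in monocyte-derived libraries. Orc6, another subunit of the origin recognition complex, was higher by a log2 fold change of 1.02 ± 0.20 in converted and 0.68 ± 0.20 in resident libraries (adjusted p = 0.00167 and 0.0153).

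The MCM helicase genes rose as a set in both groups. All 6 subunit genes, Mcm2 to Mcm7, were higher than in the monocyte-derived group, with log2 fold changes of 1.25 to 1.87 for converted and 0.69 to 1.20 for resident macrophages. Without resident library 2, Mcm2, Mcm3, Mcm4 and Mcm6 were no longer called in resident libraries, and the same 4 were lost without the filter on low counts. Mcm6 had 392.9, 524.2 and 360.0 CPM in converted, 225.9, 278.8 and 241.5 CPM in resident and 84.5, 151.3 and 181.2 CPM in monocyte-derived libraries. No converted library of Mcm6 reached down to the resident range, and no resident library down to the monocyte-derived range. Its log2 fold change was 1.61 ± 0.26 for converted (adjusted p = 0.000605) and 0.84 ± 0.25 for resident (adjusted p = 0.0194), and 0.78 ± 0.25 between converted and resident, which did not pass (adjusted p = 0.111). Mcm5 came closest to a call between converted and resident, at a log2 fold change of 0.79 ± 0.21 (adjusted p = 0.0554), with 268.0 ± 54.8 CPM in converted, 155.0 ± 14.1 CPM in resident and 84.5 ± 23.0 CPM in monocyte-derived libraries. Mcm7 had the largest difference of the 6 from monocyte-derived libraries, averaging 246.9 ± 65.3 CPM in converted, 154.6 ± 7.73 CPM in resident and 67.5 ± 24.6 CPM in monocyte-derived libraries. Although the proteins form a ring with equal parts of each, their RNA levels per length were unequal. Per length, Mcm2 was the lowest subunit in every group. The highest, Mcm6, was at 3.44 times the TPM of Mcm2 in converted and 3.06 times in resident libraries. In monocyte-derived libraries Mcm3 had the highest mean, at 2.83 times the TPM of Mcm2, though Mcm6 was above Mcm3 in libraries 2 and 3. The exon length used was 6956 bases for Mcm2 and 4666 for Mcm6. In CPM, Mcm2 was not the lowest in resident libraries (121.4, against 120.2 for Mcm4) or monocyte-derived libraries (73.6, against 67.5 for Mcm7).

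The partners that activate the helicase were less uniform. Cdc45, Gins1 and Gins3 passed the test in both groups against monocyte-derived macrophages, Gins4 in converted only, and Gins2 in neither; the difference between converted and resident did not pass for any. Cdc45 averaged 52.6 ± 10.0 CPM in converted, 31.9 ± 4.80 CPM in resident and 15.5 ± 7.10 CPM in monocyte-derived libraries, with log2 fold changes of 1.77 ± 0.30 and 1.05 ± 0.30 against the monocyte-derived group (adjusted p = 0.000893 and 0.0151). Gins4 was the most abundant GINS subunit per length in every group. It averaged 49.1 ± 4.32 CPM in converted, 38.3 ± 2.00 CPM in resident and 33.5 ± 3.00 CPM in monocyte-derived libraries. Against the monocyte-derived group, edgeR gave log2 fold changes of 0.555 ± 0.102 for converted and 0.197 ± 0.102 for resident libraries (adjusted p = 0.0013 and 0.137). Gins3 averaged 16.4 ± 2.48 CPM in converted, 12.3 ± 1.49 CPM in resident and 5.75 ± 0.99 CPM in monocyte-derived libraries. The GINS proteins also assemble in equal parts, yet their mean TPM were unequal. Gins3 was the lowest in converted and monocyte-derived libraries, with Gins4 at 6.01 and 11.7 times its mean. In resident libraries Gins2 was the lowest, with Gins4 at 6.32 times its mean. The exon lengths used were 1349 bases for Gins4, 2709 for Gins3 and 4097 for Gins2, and the size of these ratios depends on them. Gins2 had 25.9, 33.5 and 23.7 CPM in converted, 19.6, 16.8 and 18.9 CPM in resident and 12.5, 17.9 and 25.3 CPM in monocyte-derived libraries. The monocyte-derived values spanned those of the resident libraries, and the converted difference was not called (log2 0.58 ± 0.23, adjusted p = 0.0566). In GENCODE M21, 67.3% of the exon bases of Gins2 overlap Gse1 on the opposite strand, and the strand setting of the counting is not given in the sources used here, so its level is uncertain.

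The clamp and its loader differed less than the helicase. Pcna encodes the sliding clamp that tethers polymerases to DNA. It had 105.2, 140.8 and 114.4 CPM in converted, 86.5, 90.8 and 90.7 CPM in resident and 60.6, 98.5 and 104.4 CPM in monocyte-derived libraries. The lowest converted library was just above the highest monocyte-derived library, and the resident libraries lay inside the monocyte-derived range. Neither difference passed, with log2 fold changes of 0.45 ± 0.19 for converted (adjusted p = 0.0668) and 0.03 ± 0.19 for resident (adjusted p = 0.92) against the monocyte-derived group. The genome holds the processed pseudogenes Pcna-ps1 and Pcna-ps2, whose share of its reads was not resolved. All 5 loader genes, Rfc1 to Rfc5, were higher in converted than in monocyte-derived libraries, by log2 fold changes of 0.91 to 1.17, and Rfc1 and Rfc2 also in resident libraries. Rfc2 had 116.2, 141.4 and 105.8 CPM in converted, 88.8, 91.8 and 90.6 CPM in resident and 42.3, 57.4 and 61.5 CPM in monocyte-derived libraries. These groups did not overlap. Rfc3, Rfc4 and Rfc5 had log2 fold changes of 0.51 ± 0.21, 0.55 ± 0.23 and 0.52 ± 0.21 in resident against monocyte-derived libraries, with adjusted p of 0.0644, 0.0688 and 0.0646. Rfc4 was the most abundant subunit per length and Rfc3 the least in every group; exons of Rfc2 overlap Lat2 and those of Rfc4 overlap Eif4a2 over 15.1% and 12.7% of their bases.

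**Figure D3:**
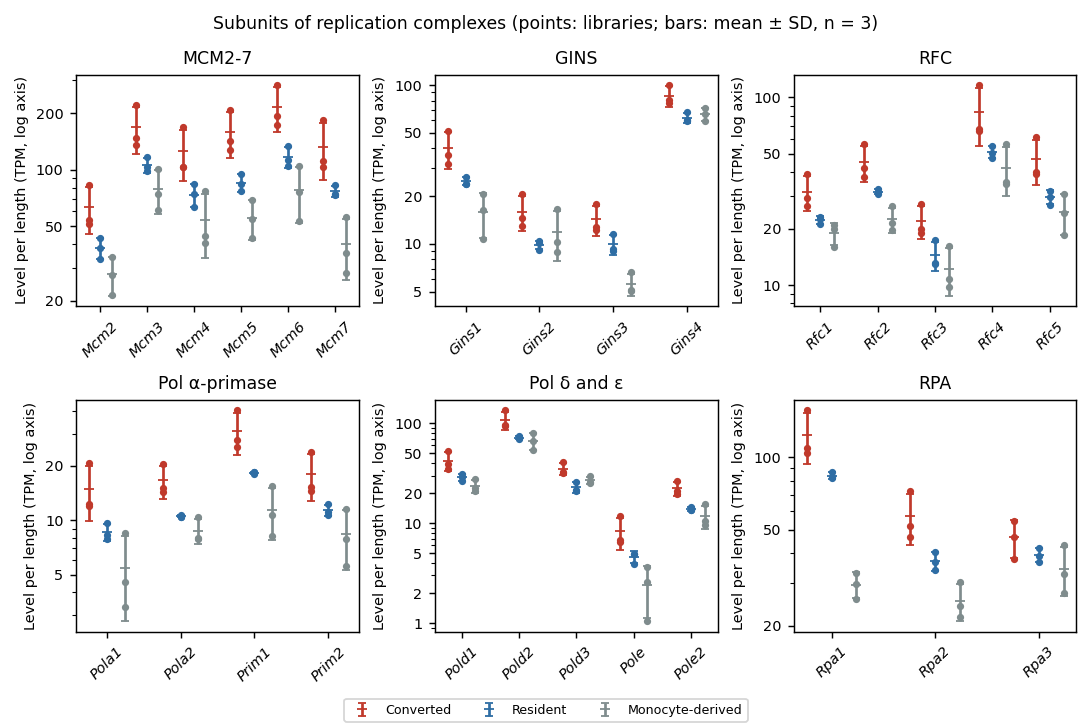
Level per length (TPM, log axis) of the subunits of 6 replication complexes, with points for libraries and bars for mean ± SD (n = 3), in converted (red), resident (blue) and monocyte-derived (grey) libraries. Within RPA, Rpa1 is the highest subunit in converted and resident libraries. In monocyte-derived libraries Rpa3 has the highest mean, and Rpa1 is just above it in library 3. Gins4 is the highest of the GINS subunits in every group.

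Polymerase genes held the only differences called between converted and resident macrophages. Primase and polymerase alpha (Prim1, Prim2, Pola1, Pola2) passed in all 4 genes for converted and for resident against monocyte-derived libraries. In resident libraries Pola1 and Prim2 were no longer called when monocyte-derived library 1 or 2 or any resident library was left out. Pola2, the accessory subunit of polymerase alpha, had 54.3, 67.9 and 52.9 CPM in converted, 39.9, 38.9 and 40.8 CPM in resident and 22.4, 28.2 and 32.0 CPM in monocyte-derived libraries. It was higher in converted than in resident libraries by a log2 fold change of 0.55 ± 0.14 (adjusted p = 0.0472), and this call was lost under several other settings. Pold2, an accessory subunit of polymerase delta, had 80.0, 101.5 and 80.3 CPM in converted, 63.0, 62.6 and 60.3 CPM in resident and 51.1, 43.8 and 46.8 CPM in monocyte-derived libraries. All 3 groups stood apart, with converted above resident by a log2 fold change of 0.49 ± 0.11 (adjusted p = 0.0262). This call was lost without scaling factors (adjusted p = 0.0731). Pold3, another accessory subunit of polymerase delta, had 66.0, 75.0 and 65.2 CPM in converted, 46.0, 53.4 and 44.0 CPM in resident and 41.0, 49.3 and 50.5 CPM in monocyte-derived libraries. Resident and monocyte-derived libraries overlapped for Pold3 (log2 0.03 ± 0.11), and converted libraries were higher than both, by 0.52 ± 0.11 over resident (adjusted p = 0.0257) and 0.55 ± 0.11 over monocyte-derived libraries (adjusted p = 0.00243). None of these 3 calls between converted and resident remained without converted library 2, with adjusted p of 0.149 for Pola2, 0.0635 for Pold2 and 0.0861 for Pold3. Pole, the catalytic subunit of polymerase epsilon, had 31.7, 52.3 and 34.0 CPM in converted, 20.2, 24.8 and 25.3 CPM in resident and 4.00, 12.3 and 15.1 CPM in monocyte-derived libraries. Its log2 fold change over the monocyte-derived group was 1.92 ± 0.40 for converted and 1.18 ± 0.39 for resident libraries (adjusted p = 0.00277 and 0.0312), against 1.08 ± 0.18 and 0.50 ± 0.18 for its partner Pole2 (adjusted p = 0.00062 and 0.0391). Neither was called in resident libraries when resident library 2 or 3 was left out. Per length, Pole2 was at 2.68 times Pole in converted, 3.02 times in resident and 4.90 times in monocyte-derived libraries. The exon lengths used were 2881 bases for Pole2 and 11160 for Pole, and the size of the ratio depends on them. Pold1, the catalytic subunit of polymerase delta, averaged 86.8 ± 13.02 CPM in converted, 63.9 ± 4.11 CPM in resident and 43.5 ± 6.33 CPM in monocyte-derived libraries, and was called in both groups against the monocyte-derived group.

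Among the subunits of RPA, the protein that coats single-stranded DNA, the largest subunit had the largest differences from monocyte-derived libraries. Rpa1 had 264.5, 347.1 and 259.3 CPM in converted, 211.1, 206.0 and 222.4 CPM in resident and 49.4, 70.7 and 68.8 CPM in monocyte-derived libraries. Converted and resident libraries were close to each other and far above the monocyte-derived libraries, with log2 fold changes of 2.21 ± 0.16 (adjusted p = 2.57e-06) and 1.76 ± 0.15 (adjusted p = 1.11e-05). The difference between converted and resident was 0.45 ± 0.15 (adjusted p = 0.12). Rpa2 was higher by 1.34 ± 0.15 in converted and 0.82 ± 0.15 in resident libraries against monocyte-derived libraries (adjusted p = 5.3e-05 and 0.00115). Rpa3, the smallest subunit, had 23.2, 24.7 and 19.3 CPM in converted, 22.1, 18.7 and 20.3 CPM in resident and 10.6, 20.8 and 13.9 CPM in monocyte-derived libraries. Its ranges overlapped between all groups, and its call in converted libraries sat at the threshold (log2 0.57 ± 0.22, adjusted p = 0.0498). The call was lost when any single library other than monocyte-derived library 2 was left out. Adjusted p was 0.113 without monocyte-derived library 1 and 0.136 without converted library 2. The call was also lost with a minimum count of 50 or with protein-coding genes alone. The TPM of Rpa1 was 2.64 ± 0.28 times that of Rpa3 in converted, 2.14 ± 0.17 times in resident and 0.88 ± 0.17 times in monocyte-derived libraries. Single monocyte-derived libraries spanned 0.69 to 1.01. The exon lengths used were 5578 bases for Rpa1 and 1136 for Rpa3, and the size of the ratio depends on them. Lig1, the ligase that joins Okazaki fragments, averaged 123.8 ± 27.3 CPM in converted, 84.4 ± 3.24 CPM in resident and 34.0 ± 18.5 CPM in monocyte-derived libraries, and was called in both groups against the monocyte-derived group. Fen1, the flap nuclease of the same step, was counted at only 0.89 to 1.01 CPM in converted, 0.783 to 0.996 CPM in resident and 0.46 to 0.78 CPM in monocyte-derived libraries, in all 137 reads over the 9 libraries. Antisense gene Gm10143 covers 78.8% of the exon bases of Fen1. Whether its reads went uncounted as ambiguous was not tested, and its level is uncertain.

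The nucleotide supply genes had the largest differences of any role from monocyte-derived libraries. All 4 (Rrm1, Rrm2, Tyms, Tk1) passed in converted and in resident libraries against monocyte-derived libraries, and their summed CPM was 4.77 and 3.06 times the monocyte-derived mean. Rrm2, the small subunit of ribonucleotide reductase (chr12:24708241-24714146, plus strand), had 450.9, 769.3 and 561.8 CPM in converted, 331.3, 406.8 and 332.8 CPM in resident and 40.2, 99.0 and 147.9 CPM in monocyte-derived libraries. All 3 groups stood apart, and the monocyte-derived libraries differed several-fold among themselves. The log2 fold change of Rrm2 was 2.64 ± 0.40 for converted (adjusted p = 0.000501) and 1.90 ± 0.39 for resident libraries (adjusted p = 0.00299), the largest of the 48 in each comparison. Rrm1, the large subunit, had 317.8, 444.8 and 325.9 CPM in converted, 213.5, 238.1 and 206.2 CPM in resident and 53.2, 99.8 and 141.0 CPM in monocyte-derived libraries. Per length, Rrm2 was at 6.45 ± 0.71 times Rrm1 in converted, 6.46 ± 0.31 times in resident and 3.71 ± 0.62 times in monocyte-derived libraries. The lowest ratio among converted and resident libraries, 5.64, was above the highest among monocyte-derived libraries, 4.17. The exon lengths used in every group were 2771 bases for Rrm2 and 11012 for Rrm1, and the size of the ratio depends on them. Tyms, which makes thymidylate from deoxyuridylate, had 149.5, 201.8 and 152.1 CPM in converted, 135.9, 155.6 and 138.9 CPM in resident and 20.5, 40.3 and 62.8 CPM in monocyte-derived libraries. Converted and resident libraries overlapped for Tyms (log2 0.23 ± 0.31, adjusted p = 0.739), while both were higher than monocyte-derived libraries, by 2.03 ± 0.33 (adjusted p = 0.000657) and 1.80 ± 0.32 (adjusted p = 0.00132). Tk1, the thymidine kinase that salvages thymidine, had 80.9, 100.8 and 72.9 CPM in converted, 54.8, 53.7 and 55.5 CPM in resident and 8.21, 22.3 and 24.7 CPM in monocyte-derived libraries. Its groups did not overlap, and its log2 fold change was 2.21 ± 0.33 for converted and 1.57 ± 0.32 for resident libraries (adjusted p = 0.000403 and 0.00284).

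**Figure D4:**
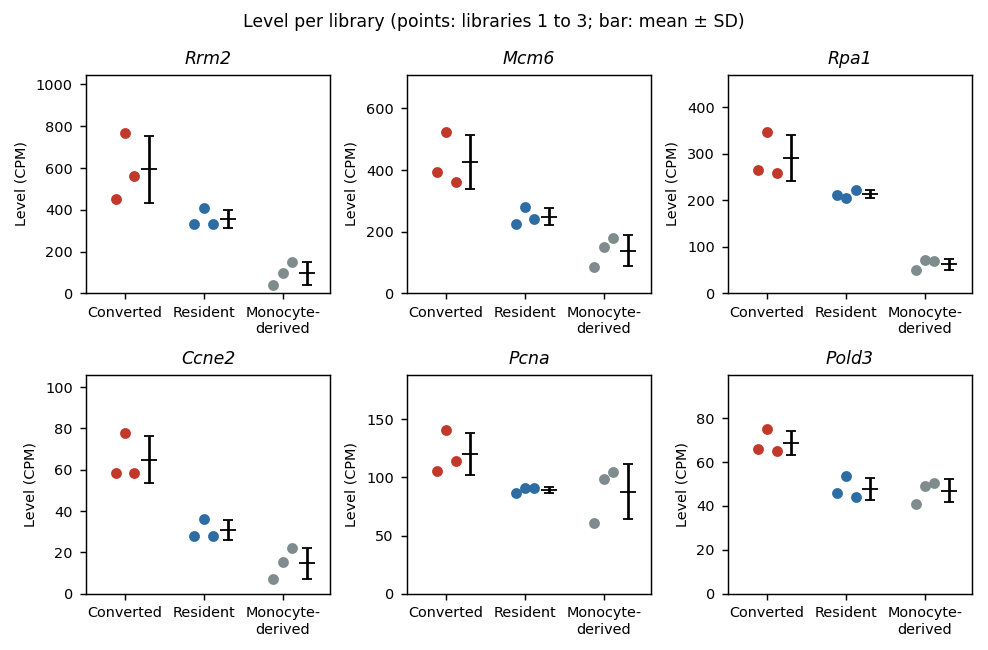
Level (CPM) of Rrm2, Mcm6, Rpa1, Ccne2, Pcna and Pold3 in each library, with points for libraries 1 to 3 and bars for mean ± SD (n = 3) in converted, resident and monocyte-derived macrophages. Rrm2, Mcm6 and Ccne2 fall in 3 separate ranges; Rpa1 is at 206.0 to 347.1 CPM in converted and resident libraries and at 49.4 to 70.7 CPM in monocyte-derived libraries; resident and monocyte-derived libraries share a range for Pcna and Pold3.

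Genes that rebuild chromatin behind the fork were higher in both groups, with 1 exception. Uhrf1, which brings the maintenance DNA methyltransferase to newly copied DNA, averaged 146.9 ± 36.8 CPM in converted, 91.0 ± 10.9 CPM in resident and 42.5 ± 17.5 CPM in monocyte-derived libraries, with log2 fold changes of 1.79 ± 0.29 and 1.10 ± 0.29 against the monocyte-derived group (adjusted p = 0.000727 and 0.0103). Chaf1a and Chaf1b encode subunits of CAF-1, which deposits histones on new DNA. Chaf1b passed in both groups, and Chaf1a passed in converted (log2 1.40 ± 0.23, adjusted p = 0.000741) and missed the threshold in resident libraries (log2 0.60 ± 0.23, adjusted p = 0.0505). Exons of Chaf1a overlap Ubxn6 over 52.5% of their bases, which leaves its level uncertain.

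Of the regulators that start S phase, the E-type cyclins differed from each other. Ccne2 had 58.5, 78.0 and 58.2 CPM in converted, 28.0, 36.2 and 28.0 CPM in resident and 7.04, 15.4 and 22.0 CPM in monocyte-derived libraries. The groups stood apart, with log2 fold changes of 2.14 ± 0.33 for converted (adjusted p = 0.000561) and 1.06 ± 0.33 for resident libraries (adjusted p = 0.0231) against monocyte-derived libraries. Its difference between converted and resident, 1.08 ± 0.32, was the largest of the 48 and did not pass (adjusted p = 0.0843). Ccne1 had 33.3, 49.6 and 35.3 CPM in converted, 28.8, 31.6 and 27.2 CPM in resident and 17.1, 21.4 and 31.5 CPM in monocyte-derived libraries. It passed in converted (log2 0.76 ± 0.22, adjusted p = 0.0166), though not without converted library 2 (adjusted p = 0.0652), and not in resident libraries (0.32 ± 0.22, adjusted p = 0.251). The ratio of Ccne2 to Ccne1 in TPM was 1.34, 1.20 and 1.25 in converted, 0.74, 0.87 and 0.78 in resident and 0.31, 0.55 and 0.53 in monocyte-derived libraries. This ratio did not overlap between groups. Per length, Ccne2 was above Ccne1 in every converted library and below it in every other library. The order in resident libraries depends on the exon lengths used, 3495 bases for Ccne2 and 2662 for Ccne1. In CPM, Ccne2 was above Ccne1 in resident libraries 2 and 3. Of the exon bases of Ccne2, 17.4% overlap Ints8, which leaves its level uncertain. E2f1, an activator of these genes, averaged 52.3 ± 4.43 CPM in converted, 37.3 ± 5.90 CPM in resident and 33.8 ± 7.93 CPM in monocyte-derived libraries. It was higher in converted libraries by 0.63 ± 0.17 (adjusted p = 0.0129), and its difference of 0.14 ± 0.17 in resident libraries did not pass (adjusted p = 0.534). E2f2, another activator, was higher in both groups, by 1.12 ± 0.18 and 0.86 ± 0.18 (adjusted p = 0.00056 and 0.0027).

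Other genes of the same processes moved in both directions. Their counts stand against 25.8% of all tested genes higher and 24.9% lower in converted, and 25.7% higher and 24.9% lower in resident, than in monocyte-derived libraries, and 1.82% higher and 4.26% lower in converted than in resident libraries. Of 36 other genes of origin firing, the fork and chromatin, 26 were higher and 2 lower in converted than in monocyte-derived libraries, with a median log2 fold change of 0.88. In resident libraries 18 were higher and 3 lower, with a median of 0.42, and between converted and resident 3 were higher and none lower. Exo1, a nuclease of replication and mismatch repair, was higher in converted libraries by 2.13 ± 0.29 (adjusted p = 0.000194). Small accessory subunits of polymerases delta and epsilon were among the genes that fell. Pold4, the smallest subunit of polymerase delta, had 25.7, 21.6 and 23.8 CPM in converted, 29.7, 30.0 and 28.4 CPM in resident and 72.8, 76.2 and 60.9 CPM in monocyte-derived libraries. Its log2 fold change was -1.56 ± 0.11 in converted (adjusted p = 2.28e-06) and -1.25 ± 0.11 in resident libraries (adjusted p = 9.49e-06). Pole4, an accessory subunit of polymerase epsilon, was lower by -0.69 ± 0.08 and -0.76 ± 0.08 on the log2 scale (adjusted p = 6.43e-05 and 3.35e-05). Hells, a chromatin remodeller that acts in DNA methylation, Topbp1, an activator of origin firing, and Cdk2, the kinase partner of cyclin E, were higher in converted than in resident libraries, by 0.95 ± 0.21, 0.69 ± 0.15 and 0.50 ± 0.12 (adjusted p = 0.0307, 0.0268 and 0.0365).

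Of 29 other genes of nucleotide metabolism, 15 were higher and 3 lower in converted libraries and 12 were higher and 7 lower in resident libraries against monocyte-derived libraries, with median log2 fold changes of 0.39 and 0.06. The 7 lower genes in resident libraries are close to the 24.9% of all tested genes that were lower. Dck, the kinase that salvages deoxycytidine, was higher by 1.37 ± 0.18 in converted and 1.11 ± 0.18 in resident libraries (adjusted p = 0.00016 and 0.000574). Mthfd2, a mitochondrial folate enzyme, was lower in both groups. It had 40.4, 86.1 and 61.4 CPM in converted, 59.1, 56.2 and 57.8 CPM in resident and 179.0, 143.0 and 165.4 CPM in monocyte-derived libraries, with log2 fold changes of -1.38 ± 0.22 and -1.49 ± 0.22 (adjusted p = 0.0007 and 0.000439). Shmt2, which feeds the same pathway with serine, was at -1.33 ± 0.24 and -1.32 ± 0.24 (adjusted p = 0.0012 and 0.00131). Between converted and resident libraries 8 of the 29 were higher and 1 lower. Among them, Ctps, which makes CTP, was higher by 0.76 ± 0.11, Umps, which makes UMP, by 0.64 ± 0.15, and Ppat, the first enzyme of purine synthesis, by 0.62 ± 0.09 (adjusted p = 0.00535, 0.0373 and 0.00453). The gene that was lower, Samhd1, encodes the enzyme that breaks down deoxynucleotides. It had 219.4, 227.6 and 239.2 CPM in converted, 338.2, 281.3 and 308.5 CPM in resident and 184.3, 195.1 and 202.9 CPM in monocyte-derived libraries, with a log2 fold change of -0.44 ± 0.09 between converted and resident (adjusted p = 0.017).

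Of 17 other genes of the E2F, RB and MuvB network, 12 were higher and 2 lower in converted and 9 were higher and 2 lower in resident libraries against monocyte-derived libraries. E2f7, a repressor induced in S phase, was higher by 2.44 ± 0.25 in converted and 1.67 ± 0.25 in resident libraries (adjusted p = 3.45e-05 and 0.000381). E2f4 and E2f5, which act with pocket proteins in resting cells, were lower, with log2 fold changes of -0.56 ± 0.11 and -0.92 ± 0.22 in converted and -0.62 ± 0.11 and -0.98 ± 0.22 in resident libraries. Tfdp1, the dimer partner of E2F proteins, had 140.3, 172.5 and 139.9 CPM in converted, 91.7, 104.5 and 90.6 CPM in resident and 75.1, 80.0 and 75.8 CPM in monocyte-derived libraries. It was higher in converted than in resident libraries by 0.66 ± 0.10 (adjusted p = 0.00596). Of 18 mitosis genes, all 18 were higher in converted and in resident than in monocyte-derived libraries. Their median log2 fold changes were 2.25 and 1.67. None passed between converted and resident, where the median was 0.54. There, 2 of the 18 had an unadjusted p under 0.05, against 2749 of the 13223 tested genes in either direction.

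Replication genes varied more between libraries of a group than other genes did in converted and monocyte-derived macrophages. Their median coefficient of variation was 18.9% in converted, 7.34% in resident and 29.8% in monocyte-derived libraries, against 10.7%, 7.81% and 17.3% over all tested genes. Much of this variation was shared among the genes. Converted library 2 had the highest value of its group for 47 of the 48, against 36.1% of all tested genes, and the exception was Fen1. Monocyte-derived library 1 had the lowest value for 43 of the 48, against 38.7% of all tested genes. Library 3 of that group had the highest for 40, against 32.3% of all tested genes. Resident library 2 had the highest value for 37 of the 48, against 34.8% of all tested genes.

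Markers of other cell types were counted in the same libraries. The summed level of 18 B-cell markers was 133.9, 272.5 and 143.1 CPM in converted, 1488, 1626 and 1912 CPM in resident and 62.9, 48.4 and 101.3 CPM in monocyte-derived libraries. The highest of these values in converted libraries was in library 2, which was also the highest for replication genes. Of the 17 B-cell markers tested, 10 were higher in converted and 16 in resident than in monocyte-derived libraries, against 25.8% and 25.7% of all tested genes. Lower in converted than in resident libraries were 15 of these markers, against 4.26% of all tested genes. The part of B cells in the differences of the replication genes was not tested by separating cells. With the B-cell level as a covariate, 13 of the 48 replication genes were called for converted and none for resident against monocyte-derived libraries (31 and 0 at an unadjusted p under 0.05). Calls over all genes came to 3365 and 107 in that fit, against 6703 and 6698 without the covariate. The median log2 fold change of the 48 was 0.79 for converted and -0.87 for resident, and the median SE of the resident fold changes was 0.909, against 0.223 without the covariate. Between converted and resident the median was 1.74, against 0.55 without the covariate, with 34 of the 48 at an unadjusted p under 0.05 and no gene of any kind called. For the fit with the covariate, the shares of all tested genes at an unadjusted p were not computed. The 12 T- and NK-cell markers summed to 4.95 to 8.51 CPM in converted, 32.2 to 53.2 CPM in resident and 20.6 to 119.1 CPM in monocyte-derived libraries. The 10 neutrophil markers summed to 2.24 to 2.57 CPM, 1.42 to 3.63 CPM and 19.0 to 53.4 CPM in the same order of groups, with no read of S100a9, Camp or Ngp in converted libraries and none of Mpo, Ngp or Retnlg in resident libraries. The 6 dendritic-cell markers summed to 20.7 to 80.2 CPM in converted, 166.2 to 183.6 CPM in resident and 16.7 to 60.3 CPM in monocyte-derived libraries, and the 8 of mast cells and eosinophils to at most 15.3 CPM in any library, with no read of Prg2 or Epx. The part of these cells in the results was not tested.

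**Figure D5:**
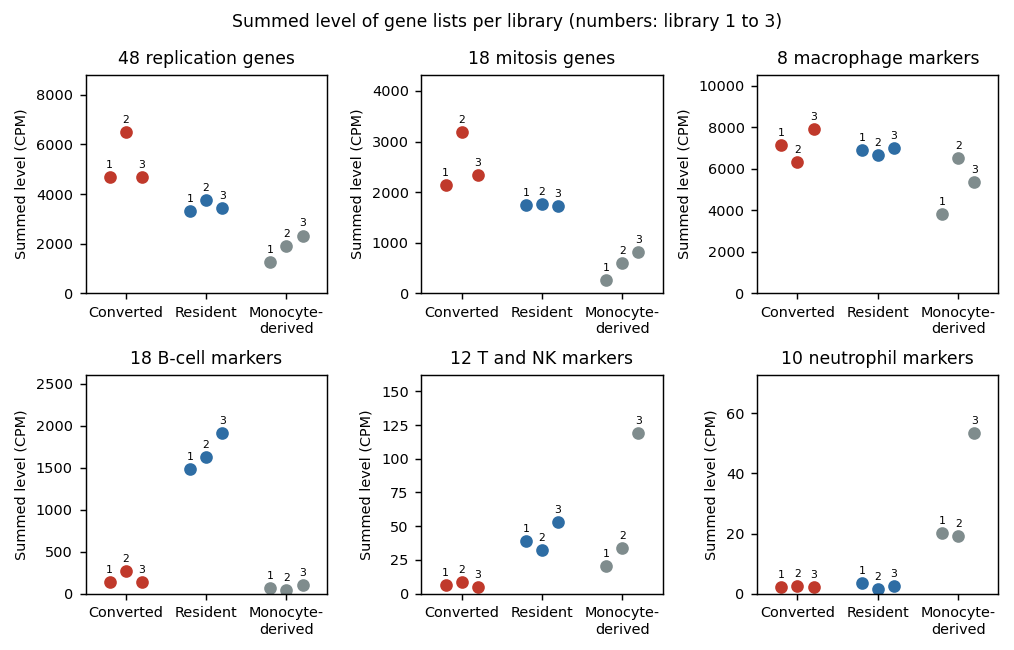
Summed level (CPM, axis from 0 in each panel) of the 48 replication genes, 18 mitosis genes, 8 macrophage markers, 18 B-cell markers, 12 T- and NK-cell markers and 10 neutrophil markers in each library (points, numbered by library, n = 3 each). Replication and mitosis genes are highest in converted libraries, B-cell markers are highest in resident libraries (1488 to 1912 CPM), and neutrophil markers are highest in monocyte-derived libraries (19.0 to 53.4 CPM).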

How the data were processed

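The RNA was measured in 9 libraries made from low-input total RNA. The authors deposited raw read counts per gene, 1 table per library, aligned with TopHat2 2.1.0 to GRCm38 and counted with HTSeq, per the submitters' processing notes; the HTSeq version, the annotation, the strand setting and how multiply aligned reads were treated were not given in any source used here. Reads without a feature (4.02 to 5.66% of each library) or in overlapping genes (4.47 to 4.68%) entered neither library sizes nor tests. Identifiers were named from GENCODE M21, and 419 of 47729 had no match.

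The counts were analysed in R 4.3.3 with edgeR 4.0.16 (filterByExpr with a minimum count of 10 and a total of 15, TMM scaling, robust quasi-likelihood F-test). The 3 groups were fitted together, leaving 6 residual degrees of freedom, and p were adjusted by Benjamini-Hochberg over the 13223 genes tested, with calls under 0.05; standard errors are the log2 fold change divided by the square root of F. The scripts were tested on simulated data. No libraries of a group agreed within sampling noise. Alternatives used DESeq2 1.42.0, limma 3.58.1, other scalings, filters and designs, and omitted libraries. All 48 genes may be named; from the other lists, up to 3 called genes with the largest change in each direction. The genes and lists were chosen with earlier results of these data known, so neither their direction nor their counts are independent evidence.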

Additional observations from a re-analysis of the deposited data

How the results depend on the processing

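Across the alternatives tried, no replication gene was called lower in any comparison. The number higher in converted than in monocyte-derived libraries was 45 and stayed at 43 to 47, and 43 to 46 with a library left out, except that it was 13 with a B-cell level as covariate. The number higher in resident libraries was 36 and stayed at 25 to 41, and 25 to 40 with a library left out, except that it was 0 with the B-cell covariate, where the median log2 fold change was -0.87, against 0.79 without it, and its median SE 0.909, against 0.223. The number higher in converted than in resident libraries was 3; it was 12 by DESeq2, 5 by limma-voom, 1 without scaling factors, 6 without the count filter, 36 in a fit of those groups alone, 0 with the B-cell covariate and 0 to 32 with a library left out, reaching 32 without monocyte-derived library 1. The cause was not tested. With the B-cell covariate the median of this comparison was 1.74, against 0.55, 34 of the 48 had an unadjusted p under 0.05, and no gene of any kind was called. The matching share of all tested genes at an unadjusted p was not computed. That covariate did not overlap between groups, so fits with it cannot separate the B-cell level from the group. The B-cell covariate aside, the genes that changed sign were 4 uncalled genes in resident against monocyte-derived libraries. Gins2, at -0.002, was at 0.004 by DESeq2, 0.072 by limma-voom, 0.006 with DESeq2 size factors, 0.065 with upper-quartile scaling, 0.025 without the filter, 0.009 with a minimum count of 50, 0.028 with the replicate block, 0.001 in the fit of those groups alone, and -0.223 to 0.283 with a library left out. Pold3 was at -0.002 without scaling factors and -0.062 to 0.09 with a library left out; Pcna was at -0.184 to 0.167 and E2f1 at -0.037 to 0.311. Over all tested genes, same-numbered libraries of different groups did not deviate together (correlations of -0.094 to 0.065, with 2 of 9 libraries closest to their own number). With 3 libraries per group, such correlations cannot decide whether the numbers carry a pairing. For the 48 replication genes, library 2 was the highest of its group for 47 in converted and 37 in resident libraries, and library 3 for 40 in monocyte-derived libraries. With the replicate block the counts were 45, 38 and 3. The last held 1 of the 3 genes called without the block, Pold3, while Pola2 and Pold2 were lost. Depth limits Fen1, with 137 reads in all.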
